A study of Mus musculus with 8 samples.

Results

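The early goblet cells described here were cells of the small intestinal crypt that carried the transcripts of the goblet lineage but little Zg16 or Clca1, products that goblet cells make late. They were chosen by measured values. A cell barcode counted as a member when it held at least 1500 UMIs (unique molecular identifiers, each standing for 1 captured transcript), at least 200 genes, at most 30% mitochondrial UMIs and under 20% UMIs from Defa genes, which Paneth cells express. In addition, at least 1% of its UMIs had to come from 6 goblet genes together (Tff3, Agr2, Fcgbp, Muc2, Zg16 and Clca1) and under 0.3% from Zg16 and Clca1. These limits found 556 members in the WT matrix and 325 in the KO matrix, 881 of 16469 cells that passed the cell filters and of 28750 barcodes in all.

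The study compared adult mice that lack ieCtnnb1, an intestinal enhancer upstream of Ctnnb1 (KO), with control mice (WT). Ctnnb1 encodes beta-catenin, which carries the Wnt signal into the nucleus. Per the study's methods the mice were on a C57BL/6 background, KO mice were homozygous for a deletion made by CRISPR/Cas9, and the WT group were H11 i.enh mice, in which ieCtnnb1 drives a reporter inserted at the H11 locus. Both groups were thus engineered lines. Crypts were released with EDTA, living cells with the epithelial surface protein EpCAM were sorted, and droplet libraries were read from the 3′ ends of transcripts. The labels list 4 samples per group, but the values were deposited as 1 matrix per group in which no cell could be assigned to a sample. Each group was therefore 1 sample, no test between groups was possible, and every interval below covers counting error only.

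Goblet cells secrete the mucus that covers the gut lining. They arise from dividing progenitors near the crypt base in which the transcription factor Atoh1 is on and Notch signalling is off, and Spdef then drives their maturation. The mucin Muc2 is folded in the endoplasmic reticulum (ER) with the help of the disulfide isomerase Agr2, decorated with O-linked sugars in the Golgi and stored in granules together with Fcgbp, Tff3, Zg16 and Clca1. Creb3l1 is a membrane-bound transcription factor of the ER, and Txndc5 is an ER disulfide isomerase. Tpsg1 encodes a membrane-anchored tryptase.

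Some depth and background values bear on all that follows. Members held a median of 8134.5 UMIs and 2620.5 genes in WT and of 18472 UMIs and 3730 genes in KO, so that KO cells were the deeper ones. Mature goblet cells (the same limits, but 0.3% or more from Zg16 and Clca1) numbered 1584 in WT and 738 in KO, with medians of 5902 and 18524.5 UMIs. The 2 matrices shared 57 barcodes, 3 of which were WT members. The lists of immune and stromal genes were at or near 0 in members, with 10 of 12 and 10 of 11 genes at 0 in each matrix. No member had 0.5% or more of its UMIs from the tuft cell list, while 20 WT and 5 KO members had at least 0.3% from the enteroendocrine list. Defa genes made up at least 10% of the UMIs of 84 WT and 22 KO members. The share of these cells in any result was not separated except where values without them are given.

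The members lay in a continuous field, and the rule did not follow a gap. In the plot of the rule's axes, goblet cells ran without a break from the level of other cells up to the highest Zg16 and Clca1, and the 95th percentile of mature WT cells was 23.6% of all UMIs. Members with Zg16 and Clca1 between 0.2% and 0.3% had 9958 CPM of Agr2 in WT (93 cells) and 11466 in KO (42 cells), and the mature cells just beyond the limit, between 0.3% and 0.4%, had 9653 (81 cells) and 10997 (33 cells). CPM are UMIs of a gene per 1000000 UMIs of the summed cells. At the other limit, cells with 1.0% to 1.1% from the goblet genes had 2316 CPM of Agr2 in WT (28 cells) and 3478 in KO (13 cells), against 2228 (52 cells) and 2879 (18 cells) in cells with 0.9% to 1.0%, which were left out.

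**Figure D1:**
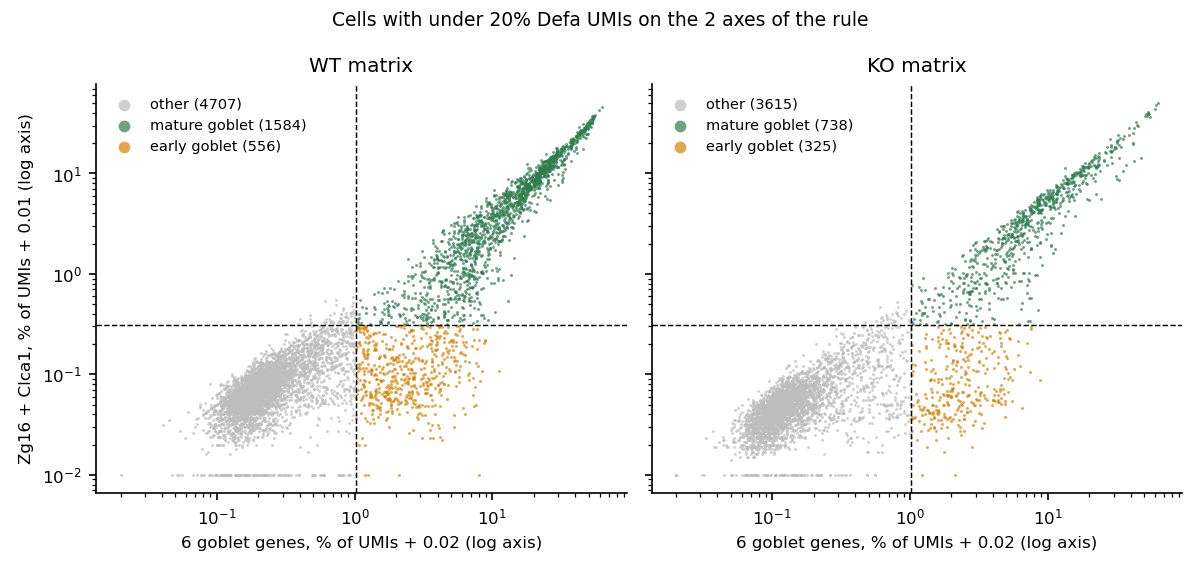
Each point is 1 cell with under 20% Defa UMIs in the WT (left) or KO (right) matrix, placed by the percent of its UMIs from the 6 goblet genes (horizontal, 0.02 added, log axis) and from Zg16 and Clca1 (vertical, 0.01 added, log axis). Dashed lines mark the limits of the rule, and the 556 WT and 325 KO early goblet cells (orange) adjoin the 1584 and 738 mature cells (green) without a gap.

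All 5 marker genes given for these cells were found in them, at levels far above those of other cells. Here "other cells" are the kept cells that met neither the goblet nor the Defa limits. They comprise tuft-gene cells (at least 0.5% of UMIs from the tuft list), G2/M-gene cells (at least 0.5% from the G2/M list) and a remaining class, while cells with 20% or more Defa UMIs are called Defa-rich. Agr2 (chr12:35992907-36004087 of GRCm38, plus strand) reached 8963 CPM in WT members and 10621 in KO members, against 232 and 299 in other cells. Tff3, a trefoil peptide of mucus (chr17:31125306-31129646, minus strand), reached 11439 and 8968, against 673 and 493. Both genes belong to the rule, so these levels describe the choice of cells.

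The remaining 3 markers were not in the rule. Tpsg1 (chr17:25369273-25374442, plus strand) stood at 133 CPM in WT and 152 in KO members, against 3.83 and 4.52 in other cells. Creb3l1 (chr2:91982328-92024502, minus strand) stood at 195 and 104 CPM, against 12.3 and 9.12. Txndc5 (chr13:38500079-38528824, minus strand) stood at 374 and 208 CPM, against 39.3 and 26.8. These markers were higher in members than in other cells but do not mark early against mature goblet cells. Mature goblet cells had 254 and 217 CPM of Tpsg1, 166 and 69.0 of Creb3l1, and 490 and 208 of Txndc5, so that of the 3 only Creb3l1 was higher in early cells of both matrices. Its log2 ratio of early to mature cells was 0.23 in WT, near the median of 0.19 over all genes. In KO it was 0.59, against a median of 0.13. Members and other cells were divided with genes of the same cells, and the comparison is no test.

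Seen cell by cell at an equal depth of 1500 UMIs, Tpsg1 had a UMI in 16.5% of WT and 19.4% of KO members, against 2.51% and 2.08% of the Defa-rich cells. Creb3l1 had a UMI in 24.1% and 12.6% of members and in 4.70% and 2.58% of Defa-rich cells. Tff3 had a UMI in 99.1% and 99.7% of members but also in 77.1% and 52.0% of tuft-gene cells, which should lack it, so its share of cells carries little information.

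The 15 genes with the highest level in members relative to other cells, in both matrices, were Agr2, Ccl9, Tff3, Fcgbp, Guca2a, Tpsg1, Selm, Muc2, Spink4, Fxyd3, Rep15, Rnase1, Creb3l1, Klk1 and Ccl6. Of these, 4 belong to the rule. The others include a chemokine pair (Ccl6 and Ccl9), the peptide hormone guanylin (Guca2a), the ER selenoprotein Selm and the protease inhibitor Spink4, which was the most abundant at 14154 CPM in WT and 12692 in KO members. Spink4 was almost as high in Defa-rich cells, with 12665 and 9001 CPM. With Defa genes under 5%, 365 WT and 274 KO members remained, and Spink4 was no longer the most abundant. It then had 34074 UMIs in WT and 47961 in KO members, against 35611 and 58187 for Agr2 and 42768 and 46817 for Tff3. Over all genes, 3.95% in WT and 3.26% in KO were at least 2-fold above other cells, and 6.74% and 6.46% at least 2-fold below.

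Zg16, a lectin of the mucus granule, had 718 CPM in WT members and 761 in KO members, against 546 and 367 CPM in other cells and 1301 and 1261 CPM in Defa-rich cells. Per cell, Zg16 and Clca1 together had a median of 0.093% of UMIs in WT and 0.061% in KO members, 0.064% and 0.052% in Defa-rich cells and 0.062% and 0.037% in cells of no named class. The rule caps both genes in members, so these values describe the choice of cells, and what part of them was free RNA in the droplets was not tested. Clca1, a secreted metalloprotease of mucus, was at 328 and 195 CPM in members against 60.0 and 19.4 in other cells, and the rule uses it in both of its limits. At 1500 UMIs per cell, 33.5% of WT and 16.9% of KO members had a UMI of Clca1, compared with 12.5% and 8.00% of tuft-gene cells.

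**Figure D2:**
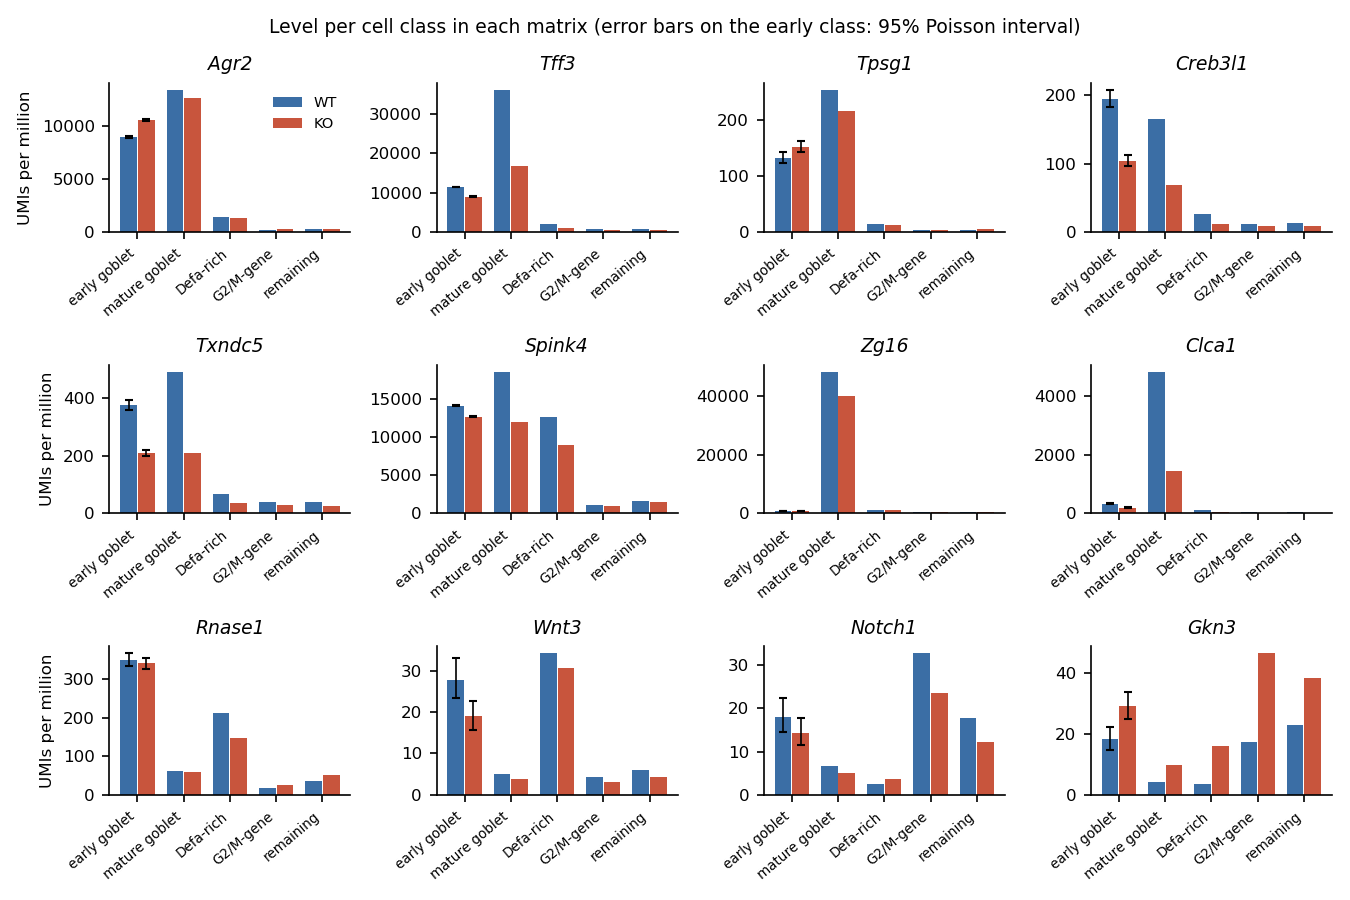
Bars give CPM for 12 genes in 5 cell classes of the WT (blue) and KO (red) matrices, and error bars on the early goblet class give the 95% Poisson interval. Tpsg1, Creb3l1 and Txndc5 are at 104 to 374 in early goblet cells and lower in every class shown outside the goblet lineage, Zg16 and Clca1 are high only in the mature class among those shown, and Rnase1 and Wnt3 are higher in early than in mature goblet cells of both matrices.

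Early and mature goblet cells were compared within each matrix, where library, animals and preparation were shared. The contrast uses the Zg16 and Clca1 limit and so describes what goes with it. Among genes with at least 100 UMIs, 2.71% were at least 2-fold higher and 2.12% at least 2-fold lower in early cells in WT, and 1.33% and 2.26% in KO. In both matrices at once, 53 of 8075 genes (0.656%) were 2-fold higher and 71 (0.879%) 2-fold lower. The median over all genes was 0.19 (log2) in WT and 0.13 in KO.

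Genes of DNA replication and division were higher in early than in mature cells. All 41 measured S-phase genes in WT and all 40 in KO were above their level in mature cells. Their medians were 0.98 and 0.86 (log2), and 20 and 8 of them were at least 2-fold higher. Over all genes, 5904 of 8602 in WT and 5524 of 8403 in KO were higher, and 2.71% and 1.33% were 2-fold higher. The replicative helicase subunit Mcm3 had 46.3 CPM in early and 18.6 in mature WT cells, and 43.9 and 19.9 in KO. Its partner Mcm6 had 63.4 and 26.0 CPM in WT, and 65.3 and 33.1 in KO. Thus the values of both helicase genes in early cells were close between WT and KO.

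All 40 genes of the G2/M list were also above their level in mature cells in both matrices, with medians of 0.76 in WT and 0.39 in KO. Of these genes, 2 in WT and 0 in KO were at least 2-fold higher, near the 2.71% and 1.33% of all genes. Mki67, the proliferation marker Ki-67, was at 475 CPM in early and 267 in mature WT cells, and at 123 and 75.7 in KO. Top2a, the topoisomerase that untangles chromosomes before division, was at 456 and 242 CPM in WT and at 198 and 122 in KO. The difference between early and mature cells pointed the same way in both matrices, while the levels of both genes in KO were lower in early and in mature cells. For the summed G2/M list this difference did not lie at the 0.3% limit. Members with 0.1% to 0.3% from Zg16 and Clca1 summed to 3726 CPM (WT) and 2494 CPM (KO). Mature cells just beyond, with 0.3% to 1%, summed to 3909 (WT) and 2475 (KO). Mki67 likewise went from 436 to 453 (WT) and from 111 to 113 (KO). The list sum was lowest in mature cells with 3% or more, with 1050 (WT) and 1467 (KO).

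Counted per cell at 1500 UMIs, 38.8% of WT members (interval 34.8% to 43.0%) and 44.3% of KO members (38.8% to 49.9%) had 3 or more UMIs of the S-phase list, against 14.7% and 19.1% of mature cells and 2.06% and 3.57% of Defa-rich cells. For the G2/M list the shares were 58.5% (54.2% to 62.6%) and 48.3% (42.8% to 53.9%), against 31.4% and 37.0% of mature cells and 5.96% and 5.74% of Defa-rich cells. One list or the other was reached by 70.3% of WT and 72.6% of KO members. Without thinning, 77.9% and 94.1% of members reached the S-phase limit and 74.6% and 89.5% the G2/M limit, with KO members the deeper ones. At 1500 UMIs, 5 of 48 WT and 2 of 25 KO tuft-gene cells reached the S-phase limit, and 3 and 5 the G2/M limit.

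Stem cell and Wnt target genes were higher in early cells as well. The stem cell list had medians of 1.29 in WT and 1.11 in KO, with all 13 and all 12 measured genes higher. Of these, 9 and 8 were so by at least 2-fold, against 2.71% and 1.33% of all genes. Olfm4, a secreted marker of crypt base cells, was at 89.9 CPM in early and 23.1 in mature WT cells, and at 35.4 and 8.17 in KO. Axin2, a feedback inhibitor that Wnt signalling induces, was at 58.6 and 16.9 CPM in WT and at 26.7 and 12.5 in KO. Lgr5, the receptor that marks crypt base stem cells, was sparse, with 64 UMIs in all WT members (13.3 CPM) and 38 in all KO members (6.26 CPM). The Wnt target list had medians of 1.01 and 0.93, with 10 of 11 genes higher in WT and 10 of 10 in KO, and its one exception in WT was Tcf7l2, a partner of beta-catenin.

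The genes most above mature cells in both matrices were Rnase1, Wnt3, Prelp, Olfm4, Fam46c, Gkn3, Ifitm3, Bex1, Notch1 and Fam213a. Rnase1, a secreted pancreatic-type ribonuclease, was at 350 CPM in early and 63.2 in mature WT cells, a log2 difference of 2.47 (2.34 to 2.60), and at 340 and 59.5 in KO, a difference of 2.52 (2.40 to 2.64). Wnt3, the Wnt ligand that Paneth cells supply to stem cells (chr11:103774150-103817957, plus strand), was at 27.8 and 5.07 CPM in WT and at 19.0 and 3.797 in KO, differences of 2.46 (1.99 to 2.94) and 2.32 (1.84 to 2.82). Defa-rich cells had 34.2 and 30.6 CPM of Wnt3 and 212 and 147 of Rnase1.

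Because some members carried Defa UMIs, the same contrast was taken with Defa genes under 5% in both goblet classes. Then 365 WT and 274 KO members remained, and the difference was 2.12 in WT and 2.58 in KO for Wnt3 and 1.92 and 2.27 for Rnase1. Both genes thus stayed higher in early cells under the stricter limit, under which members still carried some Defa UMIs. With the highest doublet scores removed, the difference was 2.59 and 2.66 for Wnt3 and 2.49 and 2.92 for Rnase1. The Paneth gene Mmp7, a protease that activates defensins, had log2 differences of 0.84 and 0.90, and of 0.43 and 0.60 with Defa under 5%.

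Members of the Notch pathway were measured on both sides of the signal. The receptor Notch1 was at 18.1 CPM in early and 6.64 in mature WT cells and at 14.3 and 5.02 in KO, on 87 UMIs in the members of each matrix. The ligand Dll1, which secretory progenitors present to their neighbours, was at 50.3 and 35.5 CPM in WT and at 20.4 and 12.4 in KO. The target Hes1 was at 52.3 and 36.3 CPM in WT and at 45.3 and 34.4 in KO. All 5 Notch genes with enough UMIs were higher in early than in mature cells in both matrices, and only Notch1 was so by 2-fold. Over all genes, 5904 of 8602 in WT and 5524 of 8403 in KO were likewise higher in early cells.

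Among transcription factors of the secretory lineage, Sox4 differed most from mature cells of those with enough UMIs, with 101 CPM in early and 38.4 in mature WT cells and 86.7 and 32.1 in KO. The secretory master factor Atoh1 was at 102 and 95.7 CPM in WT and at 85.7 and 63.0 in KO, a difference of 0.09 in WT and 0.44 in KO. Spdef was at 110 and 128 CPM in WT and at 111 and 80.1 in KO, so that its difference was -0.22 in WT and 0.47 in KO. Levels of Spdef in early cells were alike in both matrices, and the matrices differed in its level in mature cells. Bhlha15 (Mist1), a factor of secretory cell structure, was higher in early cells by 1.23 and 0.87, on 96 and 77 UMIs in members.

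The genes most below mature cells in both matrices were Zg16, Ido1, Clca1, Rgs2, Gsta4, S100a6, Scin, Ddx60, Anxa3 and Rhoc. Zg16 and Clca1 define the contrast. Ido1, which breaks down tryptophan, had 5 UMIs in WT members (1.04 CPM) against 28.7 CPM in mature cells, and 0 UMIs in KO members against 13.2 CPM, which makes it at least 26.7-fold lower there, taking a floor of 3 UMIs over the class. The calcium-binding protein S100a6 was at 154 and 931 CPM in WT and at 143 and 599 in KO. Scin, an actin-severing protein of secretory cells, was at 42.8 and 328 CPM in WT and at 22.9 and 94.1 in KO. Krt20, a keratin of differentiated gut cells, was at 70.4 and 290 CPM in WT and at 70.4 and 229 in KO.

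**Figure D3:**
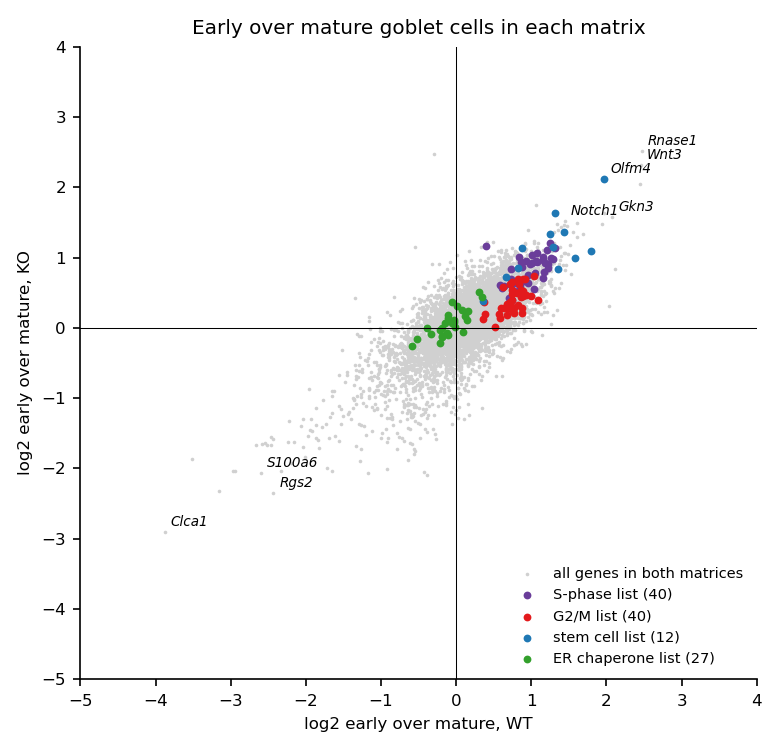
Each point is 1 of 8075 genes, placed by its log2 ratio of early to mature goblet cells in the WT matrix (horizontal) and in the KO matrix (vertical), with 4 gene lists in colour; 2 genes, Zg16 and Ghrl, lie outside the axes. The S-phase, G2/M and stem cell genes lie above 0 in both matrices, and the ER chaperone genes lie around 0.

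The secretory machinery, in contrast, differed less between early and mature cells. The ER chaperone list had medians of -0.08 in WT and 0.07 in KO over 28 and 27 genes, none of them 2-fold different in either direction. Over all genes the medians were 0.19 and 0.13. Of the ER chaperone genes, 19 were lower in early cells in WT and 10 in KO. Over all genes, 2698 of 8602 in WT and 2879 of 8403 in KO were lower. In WT most of the list thus went against the direction of most genes. With genes above 1% of UMIs left out of the total, the list medians were -0.23 in WT and -0.01 in KO. The chaperone Hspa5 (BiP) was at 854 CPM in early and 1078 in mature WT cells and at 652 and 695 in KO, compared with 492 and 453 in other cells. The isomerase Pdia5 was at 129 and 104 CPM in WT and at 88.4 and 62.2 in KO, compared with 9.33 and 8.30 in other cells. The list summed to 17764 CPM in WT and 18489 in KO members, against 22866 and 20126 in mature cells and 4981 and 4687 in the remaining class.

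Genes of the translocon, the channel through which secreted proteins enter the ER, had medians of -0.02 in WT and 0.03 in KO over 25 genes, with none 2-fold different. Those of Golgi transport had medians of -0.13 and -0.05 over 36 genes. Tmed6, a cargo receptor, was the one transport gene at least 2-fold higher in early cells, with log2 ratios of 1.03 in WT and 1.01 in KO. Genes of O-linked glycosylation, which build the sugar coat of mucins, had medians of -0.25 over 26 genes in WT and -0.01 over 27 in KO. The sialyltransferase St3gal1 had log2 ratios of 1.69 in WT and 1.34 in KO, and the sulfotransferase Chst4 had log2 ratios of -1.45 in WT and -0.67 in KO.

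The mucus product list had medians of -0.93 over 13 genes in WT and -0.79 in KO, but 5 of these genes belong to the rule. Over the other 8 genes the medians were -0.34 in WT and -0.07 in KO. Muc2 was at 2885 CPM in early and 9944 in mature WT cells, and at 1411 and 3745 in KO. Fcgbp, the mucin-binding protein, was at 2537 and 14020 CPM in WT and at 1893 and 5565 in KO. Agr2 differed less, with 8963 and 13442 CPM in WT and 10621 and 12714 in KO. Muc2, Fcgbp and Agr2 belong to the rule, whereas Spink4 does not. Spink4 was at 14154 and 18618 CPM in WT and at 12692 and 11996 in KO. With Defa genes under 5% its log2 ratio of early to mature cells went from -0.40 to -0.88 in WT. In KO it went from 0.08 to -0.35. The chemokine Ccl9 was one goblet gene higher in early cells, with 514 and 203 CPM in WT and 424 and 135 in KO.

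**Figure D4:**
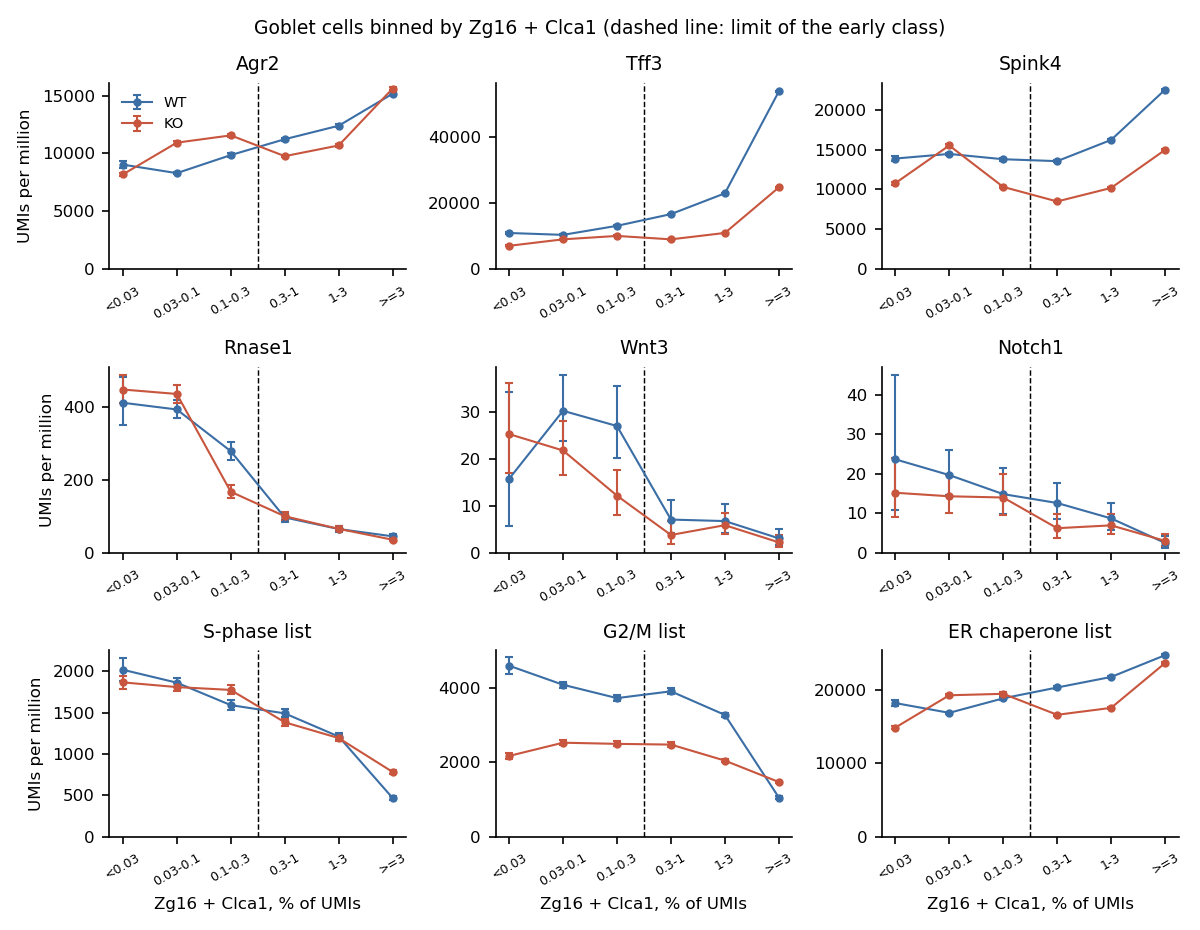
Goblet cells of each matrix (WT blue, KO red) were placed in 6 bins by the percent of UMIs from Zg16 and Clca1 (horizontal, the first 3 bins being the early cells), and the vertical axis gives CPM of a gene or of a summed list, with 95% Poisson intervals. In WT, Rnase1 falls from 412 in the lowest bin to 45.2 in the highest and the S-phase list from 2021 to 467, while the ER chaperone list is at 18217 and 24751.

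The early cells were not uniform along the same axis. Rnase1 was at 412, 394 and 279 CPM in the 3 bins of the WT members (under 0.03%, 0.03% to 0.1% and 0.1% to 0.3% from Zg16 and Clca1) and at 448, 436 and 168 CPM in those of the KO members. In the next bin, the first of the mature cells, it was at 97.1 and 100.5 CPM. Muc2 went the other way, with 2263, 2511 and 3515 CPM in WT and 1011, 1366 and 1678 in KO. The ER chaperone list moved less across the same bins, with 18217, 16883 and 18862 CPM in WT and 14866, 19279 and 19479 in KO. These bins held 40, 256 and 260 WT cells and 58, 152 and 115 KO cells.

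To show what the ER chaperone genes of these cells share in sequence, the promoter windows of RefSeq (GRCm38.p6, from 250 bases before to 50 after each start) were searched on both strands for the ER stress response element, which is CCAAT, then 9 bases of any kind, then CCACG. It was found in 8 of the 26 ER chaperone genes that had a window (30.8%), and in 37 of 27025 genes of the table (0.137%). The matches are shown 5′ to 3′ on the strand of the gene in windows of 30 bases, with the matched bases in capitals, and those starting with CGTGG hold the element on the opposite strand.
Hspa5 (chr2:34772020-34772049, plus strand): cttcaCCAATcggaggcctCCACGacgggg
Pdia6 (chr12:17266486-17266515, plus strand): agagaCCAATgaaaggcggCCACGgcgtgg
Hsp90b1 (chr10:86705632-86705661, minus strand): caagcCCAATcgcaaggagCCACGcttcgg
Hsp90b1, a second match (chr10:86705527-86705556, minus strand): gagtgCGTGGtgaggcacgATTGGtgagtt
Calr (chr8:84847069-84847098, minus strand): caacgCGTGGtcgaccctcATTGGcccata
Canx (chr11:50325794-50325823, minus strand): attgaCCAATcaccacgctCCACGaagaat
Dnajc3 (chr14:118937822-118937851, plus strand): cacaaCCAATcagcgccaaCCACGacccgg
Creld2 (chr15:88819515-88819544, plus strand): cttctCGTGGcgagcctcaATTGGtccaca
Ero1lb (chr13:12565677-12565706, plus strand): ggcctCGTGGtcccgcctcATTGGccgccg

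These 8 genes encode the lumenal chaperones Hspa5 and Hsp90b1, the lectin chaperones Calr and Canx, the isomerase Pdia6, the oxidase Ero1lb and the cofactors Dnajc3 and Creld2. Their early over mature ratios lay between -0.34 (Hspa5) and 0.29 (Ero1lb) in WT. A second letter pattern of the unfolded protein response, TGACGTGG, was found in 2 of the 26 genes (7.69%), against 0.714% of the table. One of them is the marker gene Txndc5, in the window of one of its 3 RefSeq starts, and the other is Txndc11.
Txndc5 (chr13:38528034-38528063, minus strand): ggcctcgccgcTGACGTGGcgctagccgcc
Txndc11 (chr16:11134616-11134645, minus strand): tgaagtgtggcTGACGTGGagagtccgggt

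Of the 15 leading genes, 11 had a window, and 4 of these (36.4%) held CAGCTG, an E-box of the kind that basic helix-loop-helix factors such as Atoh1 bind, against 18.3% of the table.
Muc2 (chr7:141690216-141690245, plus strand): atggagcccccaCAGCTGttttcctgataa
Fcgbp (chr7:28071016-28071045, plus strand): gggtgtagccacCAGCTGctctcacaccca
Guca2a (chr4:119637514-119637543, plus strand): caggacccagccCAGCTGtgagtcacagta
Ccl9 (chr11:83578821-83578850, minus strand): atatctgtcggtCAGCTGtcaatgagcata
The E-box is short and common, and a match in either case describes letters and not a bound site. Of 32851 windows, 2 held both patterns of the stress response, 7 the first of them with the E-box and 28 the second with it.

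The design asks what the loss of the enhancer changed, and in early goblet cells this was read first in their number. They made up 5.25% of kept WT cells (4.83% to 5.69%) and 5.53% of kept KO cells (4.96% to 6.14%), with a log2 ratio of 0.07 (-0.12 to 0.27). Mature goblet cells made up 14.96% and 12.5%, a log2 ratio of -0.25 (-0.37 to -0.14). Of all goblet cells, 26.0% were early in WT (24.1% to 27.9%). In KO 30.6% were early (27.8% to 33.4%), and the log2 ratio was 0.23 (0.07 to 0.40). With 1 sample per group none of these ratios can be set against the spread between mice. The classes are also set by the rule genes, whose levels differed between the matrices. In mature cells the median share of UMIs from the 6 goblet genes was 11.8% in WT and 7.20% in KO. The part of this difference in the ratios was not tested. Defa-rich cells were 35.3% of kept WT and 20.5% of kept KO cells, and the shares of one matrix add up to a fixed total. With Defa genes limited to 5% the log2 ratio of the early share was 0.43, and with Zg16 and Clca1 limited to 0.1% it was 0.35. The Defa limit cut the 2 matrices unequally, leaving 365 of 556 WT and 274 of 325 KO members. The median Defa share of members was 3.44% in WT and 1.64% in KO.

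Ctnnb1 itself (chr9:120929216-120960507, plus strand) had 207 CPM in WT members and 130 in KO members, a log2 ratio of -0.67 (-0.80 to -0.53). It was at 198 and 119 CPM in mature goblet cells and at 222 and 133 in other cells. The lower level in KO was thus of the same order in each of these classes. Relative to the median of genes of like length the ratio in members was -0.29, and library and genotype cannot be told apart in it. The deletion lies outside the gene, so the value is no check of the deletion.

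The difference between the matrices reached most genes and varied with transcript length. Of 7516 genes with at least 100 UMIs in members, 39 (0.519%) were at least 2-fold higher and 1019 (13.6%) at least 2-fold lower in KO, with a median log2 ratio of -0.27. With each cell thinned to 1500 UMIs, 1699 genes kept 100 UMIs, and 31 of these were higher and 133 lower, with a median of 0.13, so that the sign of the median changed under thinning, over fewer genes. Genes with a known length were split into 4 quartiles by summed exon length. The median was 0.25 in the shortest (median 1808 bases), -0.13 and -0.46 in those between, and -0.82 in the longest (median 9495 bases). In other cells the median over the same genes was -0.32. Early over mature medians within a matrix hardly moved with length, from 0.17 in the shortest to 0.23 in the longest quartile in WT and from 0.08 to 0.19 in KO. The cause of the relation with length was not tested, and library and genotype cannot be told apart in it.

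The genes highest in KO members were Ghrl, Tmigd1, Fabp6, Reg3b, Sycn, Rgcc, Slc51b, Alyref, Fam183b and Reg3g. Ghrl, the enteroendocrine hormone ghrelin, had 17 UMIs in WT and 639 in KO members, and 96.7% of the KO UMIs were in 1 cell. Without the cells that carried enteroendocrine transcripts its log2 ratio was -0.02. Fabp6 and Slc51b handle bile acids in the ileum, and Reg3b and Reg3g are antimicrobial lectins. Reg3b had 1041 CPM in WT members and 3424 in KO members, a log2 ratio of 1.72 (1.67 to 1.76), and 3704 and 14115 in other cells, a ratio of 1.93. Fabp6 was at 157 and 837 CPM, a ratio of 2.41 (2.30 to 2.52), and at 1491 and 5251 in other cells, a ratio of 1.82. Levels of both were lower in members than in other cells of the same matrix. At least 5% of UMIs came from the enterocyte list in 6 WT and 8 KO members. With the highest doublet scores removed, Fabp6 fell from 5077 to 1614 UMIs in KO members and its ratio was 1.64, that of Tmigd1 was 1.01, and that of Slc51b was 0.39 on 26 and 41 UMIs, no longer 2-fold. Reg3b then had a ratio of 1.46. The part of enterocyte transcripts in these ratios was not tested further.

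Alyref, which couples RNA processing to export, had a more even distribution, with 59.4 CPM in WT and 149 in KO members, a log2 ratio of 1.33 (1.14 to 1.53), and 1.33% of the KO UMIs in the cell that held most. In other cells its ratio was 1.03.

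The genes lowest in KO members were Tph1, AY036118, Tsix, mt-Atp8, Gm42418, Hist1h2an, Hist1h4c, Chgb, Thbs1 and Kcnq1ot1. Tph1, the first enzyme of serotonin synthesis, and Chgb, a granin of enteroendocrine granules, came from few cells. Chgb had 1381 UMIs in WT and 167 in KO members, a log2 ratio of -3.38, and 78 and 63 UMIs, a ratio of -0.65, once cells with enteroendocrine transcripts were removed. Tph1 kept 7 and 2 UMIs. Gm42418 and AY036118, which lie over ribosomal RNA sequence, were at 12071 and 932 CPM and at 778 and 24.6 CPM, and their log2 ratios of -3.70 and -4.99 in members were matched by -3.52 and -4.86 in other cells. The histone genes Hist1h2an and Hist1h4c had ratios of -3.63 and -3.40 in members and -4.08 and -3.35 in other cells. These features thus differed between the matrices in every cell group given here and not only in goblet cells.

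Among genes at least 2-fold above other cells in both matrices, those highest in KO were C2cd4b, Smim5, Bcat2, Foxa3 and Klk1. Foxa3, a forkhead factor of goblet and other secretory cells, had 97.2 CPM in WT members and 152 in KO members, a log2 ratio of 0.65 (0.48 to 0.81), compared with 0.57 in other cells and -0.18 in mature goblet cells. The kallikrein Klk1 was at 300 and 440 CPM, a ratio of 0.55 (0.46 to 0.65), compared with 0.87 in other cells. None of these 5 genes reached 2-fold.

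The goblet-enriched genes lowest in KO were Fosb, Galnt5, Sytl2, Egr1 and Kit. Galnt5, which starts O-linked sugar chains, had 41.5 CPM in WT members and 9.56 in KO members, a log2 ratio of -2.12 (-2.57 to -1.69), compared with -2.11 in mature cells. Sytl2, which tethers secretory granules to the membrane, was at 81.8 and 19.6 CPM, a ratio of -2.06 (-2.37 to -1.76), compared with -2.59 in mature and -2.37 in other cells. The receptor kinase Kit, which deep crypt secretory cells of the colon express, was at 56.1 and 15.2 CPM, a ratio of -1.89 (-2.24 to -1.54), compared with -1.82 in other cells. In each case the ratio in cells outside the early class pointed the same way.

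The immediate early genes, which cells switch on within minutes of a stimulus, were mostly lower in KO members. Of 11 such genes 8 were at least 2-fold lower, against 13.6% of all genes. Their median log2 ratio was -1.29, and the median was -1.28 in other cells. Fosb had 154 CPM in WT and 25.6 in KO, Egr1 had 202 and 51.6, and Jun had 465 and 152. Of 23 histone genes, a group taken after their values had been seen, 19 were 2-fold lower, with a median of -2.18.

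The G2/M list had a median of -0.81 in KO members, with 17 of 40 genes at least 2-fold lower and none 2-fold higher, against 13.6% lower over all genes. Within genes of like length the median was -0.47. In other cells it was -0.87, and in mature goblet cells -0.38. Mki67 had a ratio of -1.95 (-2.07 to -1.83), the kinesin Kif11 of -1.62 (-1.89 to -1.36) and Top2a of -1.20 (-1.30 to -1.10). Ube2c and Birc5, which act in the same phase, had ratios of 0.09 (-0.01 to 0.19) and 0.01 (-0.11 to 0.13). The list ran from Mki67 to Cdkn3, a phosphatase of cyclin-dependent kinases, at 0.34.

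The S-phase list had a median of -0.04, with 2 of 41 genes 2-fold lower, against 13.6% of all genes. Its genes ran from Blm at -1.41 (-1.97 to -0.88) to Rpa2 at 0.78 (0.50 to 1.06), and the DNA precursor enzymes Dut and Tyms were higher in KO, at 0.75 (0.58 to 0.91) and 0.41 (0.23 to 0.60). Relative to genes of like length the median was 0.29.

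**Figure D5:**
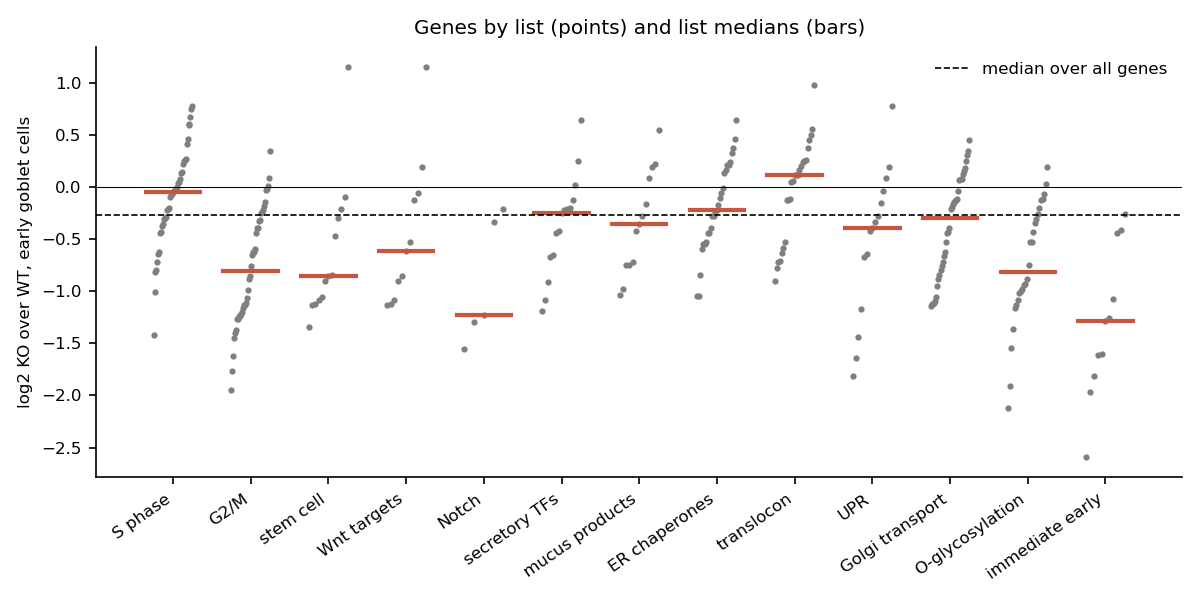
Each point is a gene with at least 100 UMIs in early goblet cells, placed by its log2 ratio of KO to WT (vertical) in 1 of 13 lists (horizontal), red bars are list medians, and the dashed line is the median over all genes at -0.27. The S-phase median lies at -0.04 and the G2/M median at -0.81, while the immediate early median is the lowest of the lists shown at -1.29.

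The ER chaperones had a median of -0.22 in KO members, close to that of all genes, with 2 of 27 genes 2-fold lower. These were Hyou1, at 44.9 CPM in WT and 21.8 in KO, and Nucb2, at 55.9 and 27.0. Creld2 and Manf, which are secreted when the ER is under stress, were higher, at 80.6 and 126 CPM and at 447 and 617, with log2 ratios of 0.65 (0.47 to 0.83) and 0.47 (0.39 to 0.54), compared with 0.82 and 0.67 in other cells. The translocon list had a median of 0.11 with no gene past 2-fold, and Spcs1, a subunit of the signal peptidase, came closest at 0.98 (0.87 to 1.09). The unfolded protein response list had a median of -0.39, with 4 of 15 genes 2-fold lower, against 13.6% of all genes. One of them was Ern2, the ER stress sensor of mucus cells, at 107 CPM in WT and 47.5 in KO.

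O-linked glycosylation stood lower, with a median of -0.81, 8 of 26 genes 2-fold lower and none 2-fold higher. Of the transferases that add the first sugar, Galnt7 had 322 CPM in WT and 126 in KO, Galnt6 had 118 and 53.7, and Galnt12 had 158 and 110. The median was -0.47 relative to genes of like length, -1.10 in mature goblet cells and -0.52 in other cells. Golgi transport had a median of -0.30 and 6 of 36 genes 2-fold lower, near the -0.27 and 13.6% of all genes.

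The stem cell list had a median of -0.85, with 5 of 13 genes 2-fold lower and 1 higher. The Wnt target list had one of -0.61, with 3 of 11 lower and 1 higher. Over all genes, 13.6% were 2-fold lower and 0.519% higher. In both lists the higher gene was Ascl2, a Wnt-dependent factor of crypt stem cells, at 11.01 CPM in WT (53 UMIs) and 24.6 in KO (149 UMIs), a log2 ratio of 1.16 (0.70 to 1.64). Axin2 had a ratio of -1.13 (-1.42 to -0.85) and Olfm4 one of -1.34 (-1.59 to -1.10). Relative to genes of like length the medians were -0.11 and 0.09. Dll1 and Dll4, the Notch ligands, had ratios of -1.30 (-1.62 to -0.98) and -1.22 (-1.76 to -0.70), compared with -0.64 and -0.38 in other cells and -1.52 and -1.75 in mature goblet cells.

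Finally, the secretory factors were compared between the matrices. Their list had a median of -0.24, with 2 of 15 genes 2-fold lower, a share near the 13.6% of all genes. These were Foxa1, at 42.6 CPM in WT and 18.6 in KO, and Klf4, a factor of goblet maturation, at 190 and 90.2. Spdef had a ratio of 0.02 (-0.15 to 0.18), Atoh1 of -0.24 (-0.43 to -0.06) and Creb3l1 of -0.91 (-1.06 to -0.76). In mature goblet cells the same genes were at -0.68, -0.60 and -1.27. Whether the difference of Spdef between the classes exceeds the spread between mice could not be tested.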

How the data were processed

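UMI counts were deposited by the authors as 1 filtered matrix per group (raw counts, not normalized), made with Cell Ranger. The matrix headers give version 4.0.0 and the submitters' processing notes 2.1.1 with build mm10; the annotation is not given in the sources used here. Per the methods, libraries used a 3′ v2 kit on chips of chemistry v2 or v3. The legends of the study differ on how many mice were pooled. Members, gene lists and limits were chosen with earlier results of these data known. Counts were summed over the cells of a class (CPM). Genes with at least 100 UMIs in both sides of a contrast together were compared, and "called" means 2-fold. Intervals (95%) are exact Poisson for CPM, conditional binomial for log2 ratios, Clopper-Pearson for shares, and the delta method for ratios of shares. They cover counting error only. Named genes were those of the lists, the 15 leading genes (10 added to CPM, in at least 10% of members), the 10 highest and lowest of each contrast and the 5 highest and lowest goblet-enriched genes. Doublets were left in, and Scrublet (scanpy 1.11.5) called 1625 WT and 637 KO cells. Where the highest doublet scores were removed, these were the top 10%, or 1059 WT and 588 KO cells, fewer than were called. Exon lengths and positions are from GENCODE M21, which held 99.0% of gene identifiers. Calculations used Python 3.11.15, numpy 2.4.6 and scipy 1.17.1. The log2 ratio and its interval were run on simulated Poisson sums of counts. Those sums held no spread between cells and no class rule, so the run checks the arithmetic only. Alternatives are listed in the closing section.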

Additional observations from a re-analysis of the deposited data

Results flagged for a closer look

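In 4 lists the median log2 ratio of early to mature goblet cells had opposite signs in the 2 matrices, and the difference was not tested in any of them. For the ER chaperones the medians were -0.0818 in WT and 0.0717 in KO, and for the translocon genes -0.0219 and 0.0264. For the Paneth list they were 0.15 in WT and -0.49 in KO, where the defensin gene Defa22 had ratios of -0.03 and -0.72 and the protease gene Mmp7 0.84 and 0.90. For the enteroendocrine list they were -0.63 in WT and 0.31 in KO, and the WT and KO values came from 11 and 7 genes and from few cells, since 20 WT and 5 KO members held 0.3% or more of their UMIs from that list.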

How the results depend on the processing

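Of 134 values recomputed under other settings, 126 stayed within a band set around the main value. For shares and Ctnnb1 the band was the counting interval, and for a count of genes 1.5 times either way. For medians over lists or all genes it was the median of the single-gene limits, which is no interval of the median. For the median over all genes it ran from -0.61 to 0.06, so staying within it says little about stability. With goblet genes at 2% or more, the early over mature median of the ER chaperones was 0.11 in WT and 0.25 in KO. With genes above 1% of UMIs left out of the total, that median was -0.23 in WT and -0.01 in KO. With Zg16 and Clca1 under 0.1%, the log2 ratio (KO over WT) was 0.49 for the early share of goblet cells and 0.35 for the share of kept cells. The latter was 0.43 with Defa genes under 5%, a limit that left 365 of 556 WT and 274 of 325 KO members. With each cell thinned to 1500 UMIs, 164 genes were 2-fold different of 1699 that kept 100 UMIs, and the median over these was 0.13 in place of -0.27. Fewer genes were tested there. With no minimum of UMIs, 2883 of 12898 genes were 2-fold different (332 higher, 2551 lower), against 1058 of 7516. The Ctnnb1 ratio ranged from -0.73 to -0.55 and the G2/M ratio from -0.98 to -0.55. Of the settings, 3 were chosen after the data had been seen: class limits on thinned cells, removal of cells with enteroendocrine transcripts, and removal of shared barcodes. No paired analysis was possible because each group was deposited as 1 pooled matrix, and for the same reason no replicate could be left out. Lowly expressed genes such as Lgr5 and Wnt3 are limited by depth.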

Other observations

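Retnlb, a secreted antimicrobial protein of goblet cells, had 59.2 CPM in early goblet cells of WT and 68.9 in those of KO, whereas mature cells had 72.6 and 12.3 CPM. Its log2 ratio of early to mature cells was thus -0.29 in WT and 2.48 in KO, and 29.9% of its UMIs in KO early cells were in 1 cell. Reg4, a lectin of deep crypt secretory and enteroendocrine cells, was at 701 and 388 CPM in early cells against 238 and 150 in mature cells and 294 and 95.2 in other cells. With Defa genes under 5%, its log2 ratio of early to mature cells went from 1.56 to 0.42 in WT and from 1.37 to 1.15 in KO. Its KO over WT ratio in early cells went from -0.85 to 0.04, with 365 of 556 WT and 274 of 325 KO members left. With cells of enteroendocrine transcripts removed, the early to mature ratios were 1.19 and 1.27.

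Neurog3, the factor that starts enteroendocrine fate, had 27 UMIs in WT and 51 in KO early goblet cells, or 5.61 and 8.41 CPM, against 0.74 and 0.29 CPM in mature goblet cells and 2.92 and 5.54 in other cells.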
